A study of Homo sapiens with 6 samples.

Results

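The genes described here are 10 members of the negative feedback arm of MAPK signaling and its ETS factors, namely the phosphatases DUSP1, DUSP4, DUSP5 and DUSP6, the inhibitors SPRY2, SPRY4, SPRED1 and SPRED2, and the transcription factors ETV4 and ETV5. They were taken by symbol from a table of 33007 genes, in which each symbol occurred once, and all 10 had enough counts to be among the 18390 genes tested. RNA-seq was performed on LM3 cells, an established HCC cell line, in 3 control samples and 3 samples with ZNF706 knockdown. Both groups carry the genotype label WT; the study calls the controls vector controls, and the knockdown cells stably express a short hairpin RNA from a lentiviral vector, selected with puromycin. More than one hairpin was made in the study and the labels do not say which was used, nor whether the 3 samples of a group came from separate cultures, so the p-values measure the spread between these samples, which may be technical.

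ERK is the last kinase of the cascade that runs from receptor tyrosine kinases through RAS, RAF and MEK. Active ERK switches on genes that hold it in check. DUSP proteins remove the phosphates from MAP kinases, DUSP5 in the nucleus and DUSP6 in the cytoplasm with a preference for ERK, and DUSP1 and DUSP4 in the nucleus with a wider range that includes JNK and p38. Sprouty and SPRED proteins act upstream on RAS and RAF, and SPRED1 brings neurofibromin, a RAS inactivator, to the membrane. ETV4 and ETV5 are ETS factors of the PEA3 group, which are transcribed in response to FGF and ERK signaling and are repressed by CIC. In liver cancer this cascade is driven by growth factor receptors and is among the targets of kinase inhibitor therapy.

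ZNF706, the targeted gene, was first examined in each sample. Its level in CPM (read counts relative to a library size scaled by the TMM method) was 51.9, 55.1 and 54.7 in the controls against 33.5, 30.8 and 32.8 after knockdown. The groups did not overlap, and ZNF706 changed by -0.73 ± 0.050 on the log2 scale (SE; quasi-likelihood, QL, test of edgeR, adjusted p = 3.7e-05). The total counts ran from 62684076 to 64713764 for controls and from 65861994 to 69057423 for knockdown, so every knockdown library was the deeper. The share of counts on mitochondrial genes was 5.40%, 5.19% and 5.40% in the controls against 5.03%, 5.02% and 4.79% after knockdown. These groups did not overlap either, and the part of this shift in the results below was not tested.

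The labelled cell type was checked against marker genes. The epithelial keratins KRT8 and KRT18 were abundant, at 190 to 207 and 258 to 283 FPKM (fragments relative to gene length and library size, as computed by the authors), whereas EPCAM and CDH1 were at most 0.40 and 0.52 FPKM. Of 7 hepatocyte or HCC markers, 3 reached 1 FPKM in some sample, ALB the highest at 0.50 to 3.57 FPKM, and the hepatocyte factor HNF4A was at most 0.23 FPKM. Their summed level was 3.45, 7.85 and 9.32 FPKM in the controls against 3.85, 3.99 and 2.60 FPKM after knockdown. Hepatocyte markers were thus low in this line in both groups, and SERPINA1, an antiprotease made by hepatocytes, was the member of that list that fell (log2 fold change -1.47, edgeR QL test, adjusted p = 0.0034). Control replicate 1 and knockdown replicate 3 stood apart, with less ALB, AFP, GPC3 and EPCAM than every other sample. In them ALB was at 0.77 and 0.50 FPKM, against 2.17 to 3.57 FPKM in the others. TTR was also lowest there, whereas APOA1, SERPINA1, HNF4A and CDH1 did not follow. The part of this difference in the results was not tested.

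Among markers of other cell types, the summed leukocyte level was 10.9, 10.7 and 11.2 FPKM in the controls against 16.7, 18.1 and 16.7 FPKM after knockdown. Nearly all of it was CD68, a lysosomal protein, at 10.4 to 10.7 and 16.5 to 18.1 FPKM, while PTPRC, the defining leukocyte marker, was at most 0.01 FPKM and LYZ at most 0.50 FPKM. The summed endothelial level was 1.79, 1.91 and 2.06 against 1.43, 1.61 and 1.69 FPKM, led by CDH5, with VWF at or below 0.03 FPKM. The fibroblast sum was 8.36, 7.61 and 7.94 against 9.55, 9.75 and 9.35 FPKM, led by COL1A1 at 7.01 to 8.46 FPKM, with COL3A1 at or below 0.69 FPKM. CD68, COL1A1 and PDGFRB rose and CDH5 fell with an adjusted p below 0.05, and the part of these shifts in the results was not tested.

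All 10 genes were lower on average in ZNF706 knockdown cells, and 8 of them (80.0%) fell with an adjusted p below 0.05, while none rose. The 10 genes were chosen with earlier results of these data known. Their shares and medians are therefore descriptions and not a test of an excess over all genes. Of all genes tested, 22.8% were called, 12.4% lower and 10.4% higher. This balance depended on the scaling, with 2286 genes lower and 1906 higher under TMM, 1518 and 2742 under library size alone, and 1539 and 2279 in limma on FPKM, whereas of the 10 genes 7 and 6 were called lower in the latter fits and 0 higher. Genes with more counts are called more often, and of the 14125 tested genes whose mean count reached 50, 29.1% were called and 16.0% were called lower. The median log2 fold change of the 10 genes was -0.58, against 0.01 for all genes tested. In limma on FPKM, in which SPRY4 and DUSP6 were too low to be tested, these medians were -0.37 and 0.03. The control and knockdown values of 8 of the 10 genes did not overlap and were lower in the knockdown, where 19.7% of all genes tested behaved so and 39.4% did not overlap in either direction. In RNA from a whole culture, fewer cells that express a gene and less RNA per cell cannot be told apart.

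The 10 genes were expressed at very different levels, which were compared per gene length. In the control samples DUSP1 was the highest, at 36.6, 36.7 and 38.9 FPKM, followed by ETV5 at 11.7, 11.1 and 12.2 FPKM. ETV4 and SPRED2 came next at mean levels of 7.00 and 6.59 FPKM and overlapped each other. SPRED1 had 4.29 FPKM on average, and DUSP5, DUSP4 and SPRY2 followed at 2.99, 2.70 and 2.18 FPKM, each overlapping its neighbour in this order. SPRY4 and DUSP6 were the lowest, with 0.88 and 0.18 FPKM, below the range of all the others. In the knockdown samples SPRED2 (5.41 FPKM) stood above ETV4 (4.10 FPKM) without overlap, so these neighbours changed places, and DUSP4 (2.22 FPKM) and DUSP5 (2.15 FPKM) overlapped. The summed level of the 10 genes was 75.04, 73.6 and 78.8 FPKM in the controls against 57.1, 58.2 and 55.8 FPKM after knockdown, and DUSP1 held the largest part of it.

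**Figure D1:**
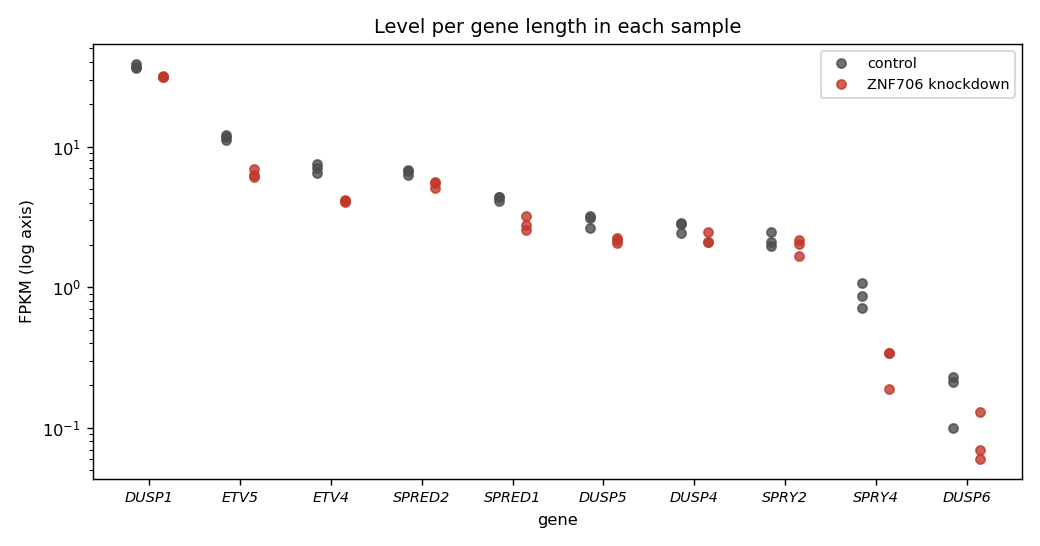
Level of each of the 10 genes in FPKM (log axis), ordered by the control mean; each point is 1 of 3 control (grey) or 3 ZNF706 knockdown (red) samples. DUSP1 lies above 30 FPKM and DUSP6 below 0.25 FPKM in every sample.

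The start regions of these genes were examined, since 8 of them fell together. RefSeq start sites (GRCh38.p14) were matched for 6 of the 10 genes, namely DUSP1, DUSP6, SPRY2, SPRY4, SPRED1 and SPRED2, and DUSP4, DUSP5, ETV4 and ETV5 were not matched. The 250 bases before the start site were searched on both strands for the CIC octamer TGAATGAA, the ETS core CCGGAA, the cyclic AMP response element TGACGTCA, its half-site TGACG, which lies within it, and the AP-1 site TGANTCA. Of the 11360 tested genes with such a window, 1.09%, 23.9%, 2.76%, 29.2% and 4.33% held these motifs in that order. The octamer and the AP-1 letters were found in none of the 6 windows. Motifs this rare are absent from most sets of 6 windows, so this does not show a lack of such sites. Only the spelling given was searched for the octamer, and ETV4 and ETV5 had no window. The ETS core was found in SPRY2, the full cyclic AMP response element in DUSP1, and the half-site in DUSP1, SPRY2 and SPRY4. A match of letters is a description and not a binding site. The windows of DUSP1, which fell, and SPRY2, which did not pass the test, are printed because they hold the full element and the ETS core and no annotated exon; capitals mark the motifs (CGTCA is the half-site read on the other strand), and the sequence reads 5′ to 3′ on the minus strand, at chr5:172771196-172771445 for DUSP1 and chr13:80341127-80341376 for SPRY2.
DUSP1: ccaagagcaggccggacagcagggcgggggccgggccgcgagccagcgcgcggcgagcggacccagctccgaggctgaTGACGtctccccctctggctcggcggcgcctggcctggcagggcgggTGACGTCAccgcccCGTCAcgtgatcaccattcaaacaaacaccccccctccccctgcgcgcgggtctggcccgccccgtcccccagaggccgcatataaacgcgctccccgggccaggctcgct
SPRY2: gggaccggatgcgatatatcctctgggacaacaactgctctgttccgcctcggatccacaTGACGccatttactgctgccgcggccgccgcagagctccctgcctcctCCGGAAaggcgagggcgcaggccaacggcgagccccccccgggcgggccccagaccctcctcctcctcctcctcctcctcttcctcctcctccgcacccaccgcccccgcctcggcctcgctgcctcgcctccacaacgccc
In DUSP1 the full element spans the bases from -125 to -118 before the start site, with a further half-site on each side of it, and in SPRY2 the half-site from -190 to -186 precedes the ETS core from -142 to -137.

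ETV5 and ETV4 are described first, since they had the smallest p of the 10 genes. ETV5 (ENSG00000244405, chromosome 3, 186046314 to 186110318, minus strand, GRCh38) had 77.7, 74.4 and 82.3 CPM in the controls against 40.8, 44.9 and 39.6 CPM after knockdown. The lowest control sample lay far above the highest knockdown sample. ETV5 changed by -0.90 ± 0.056 on the log2 scale (SE, edgeR QL test, adjusted p = 2.3e-05), 46.6% below the control level. By p, ETV5 ranked 20 among the 18390 genes tested. ETV5-AS1, a transcript annotated on the opposite strand inside ETV5, had 6, 4 and 5 counts in the controls against 0, 0 and 0 counts after knockdown, too few to be tested. Whether the counting used strand is not given in the sources used here, so reads of ETV5 and ETV5-AS1 cannot be told apart. DGKG, which overlaps the start of ETV5 on the same strand, had a log2 fold change of -0.15 and was not called (edgeR, adjusted p = 0.56).

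ETV4 (ENSG00000175832, chromosome 17, 43527844 to 43546340, minus strand) had 26.3, 28.8 and 30.8 CPM in the controls against 16.2, 16.4 and 16.0 CPM after knockdown. The knockdown samples were nearly alike and all lay below the control samples. ETV4 changed by -0.82 ± 0.077 on the log2 scale (SE, edgeR QL test, adjusted p = 0.00014). ETV4 lies within the span of DHX8, an RNA helicase gene on the opposite strand with 5526 to 5780 counts in every sample, which fell by 0.16 on the log2 scale (edgeR, adjusted p = 0.0056). Reads shared between ETV4 and DHX8 cannot be assigned without strand. The ratio of ETV4 to ETV5 within a sample, taken on CPM without gene length so that only its change between groups can be read, was 0.338, 0.387 and 0.374 in the controls against 0.398, 0.366 and 0.403 after knockdown, and overlapped between the groups (difference of 0.087 on the log2 scale, exact permutation test, two-sided p = 0.3). ETV1, the remaining PEA3 gene, was barely expressed, with 0.392 ± 0.175 CPM for controls and 0.160 ± 0.071 CPM for knockdown (SD, n = 3 each).

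SPRY4, a sprouty protein that blocks RAS activation, had the largest fall of the 10 genes. SPRY4 (ENSG00000187678, chromosome 5, 142310427 to 142326455, minus strand) had 402, 347 and 508 counts in the controls against 176, 168 and 96 counts after knockdown. Scaled to library size, these were 6.50, 5.46 and 8.28 CPM against 2.51, 2.51 and 1.37 CPM. Control replicate 3 was the highest and knockdown replicate 3 the lowest, and the groups lay well apart. SPRY4 changed by -1.66 ± 0.25 on the log2 scale (SE, edgeR QL test, adjusted p = 0.0013), a level of 0.316-fold of the control level, and SPRY4 ranked 80 by size of fall among the 18390 genes tested. Without knockdown replicate 3 it was -1.43 and without control replicate 3 it was -1.49.

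SPRY2, its close relative, did not pass the test. SPRY2 (ENSG00000136158, chromosome 13, 80335976 to 80341126, minus strand) had 7.74, 9.28 and 7.36 CPM in the controls against 6.05, 7.74 and 7.35 CPM after knockdown. The groups overlapped, since knockdown replicate 2 was level with control replicate 1 and above control replicate 3. SPRY2 changed by -0.21 ± 0.14 on the log2 scale (SE, edgeR QL test, adjusted p = 0.32). The CPM ratio of SPRY4 to SPRY2 was 0.839, 0.588 and 1.12 in the controls against 0.415, 0.324 and 0.187 after knockdown. It fell by 1.49 on the log2 scale without overlap, and the exact permutation test gave a two-sided p = 0.1, the smallest that 3 samples against 3 allow (0.15 after Benjamini-Hochberg adjustment over the 3 ratios computed, which were chosen after their values were seen). The other sprouty genes, SPRY1 (log2 fold change -0.21) and SPRY3 (-0.30), were not called.

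SPRED1 and SPRED2, the membrane-bound relatives of sprouty, both fell. SPRED1 (ENSG00000166068, chromosome 15, 38252836 to 38357249, plus strand) had 39.1, 36.8 and 39.7 CPM in the controls against 28.0, 24.2 and 22.3 CPM after knockdown. SPRED1 changed by -0.64 ± 0.083 on the log2 scale (SE, edgeR QL test, adjusted p = 0.00072). The fall was larger than the spread within both groups, although the knockdown samples spread more than the controls. SPRED2 (ENSG00000198369, chromosome 2, 65310851 to 65432599, minus strand) had 42.3, 40.0 and 44.0 CPM in the controls against 34.0, 34.8 and 31.5 CPM after knockdown, without overlap. SPRED2 changed by -0.33 ± 0.058 on the log2 scale (SE, edgeR QL test, adjusted p = 0.0031). The CPM ratio of SPRED1 to SPRED2 was 0.925, 0.920 and 0.902 in the controls against 0.823, 0.696 and 0.707 after knockdown, a change of -0.31 on the log2 scale without overlap (exact permutation test, two-sided p = 0.1, again the smallest possible). Per gene length SPRED1 lay below SPRED2 in both groups. SPRED3 was also barely expressed, at 0.729 ± 0.148 and 0.661 ± 0.308 CPM (SD, n = 3 each).

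**Figure D2:**
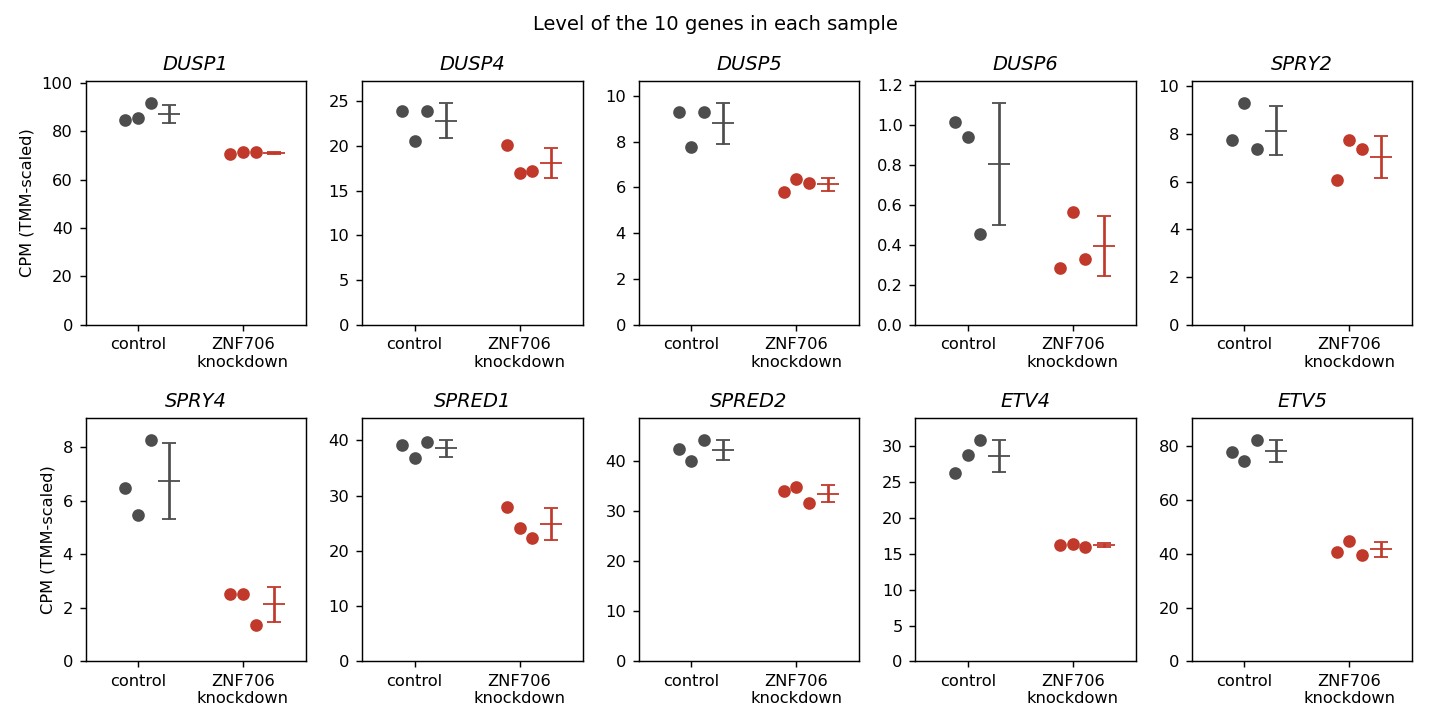
TMM-scaled CPM of the 10 genes in each sample, 1 panel per gene with its own axis from 0; points are the 3 control (grey) and 3 ZNF706 knockdown (red) samples, and the bars give mean and SD. The groups overlap for DUSP6 and SPRY2 and are apart for the other 8 genes.

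DUSP5, the nuclear phosphatase for ERK, had the largest fall of the 3 called phosphatases among the 10 genes. DUSP5 (ENSG00000138166, chromosome 10, 110497907 to 110511533, plus strand) had 9.31, 7.77 and 9.30 CPM in the controls against 5.82, 6.37 and 6.20 CPM after knockdown. Control replicate 2 was the lowest control and still lay above every knockdown sample. DUSP5 changed by -0.52 ± 0.11 on the log2 scale (SE, edgeR QL test, adjusted p = 0.0096). Its processed copy DUSP5P1 on chromosome 1 had 25 to 40 counts in the controls against 34 to 41 after knockdown, against 494 to 576 and 408 to 434 on DUSP5, so reads placed on the copy were few.

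DUSP1, an immediate early phosphatase induced by growth factors and stress, fell least among the called genes. DUSP1 (ENSG00000120129, chromosome 5, 172768096 to 172771195, minus strand) had 84.6, 85.5 and 91.6 CPM in the controls against 70.7, 71.5 and 71.3 CPM after knockdown. The knockdown samples lay within 1 CPM of each other and below all controls. DUSP1 changed by -0.29 ± 0.040 on the log2 scale (SE, edgeR QL test, adjusted p = 0.00084), short of the limit of 0.3 on the log2 scale that the study's criteria set. DUSP4 (ENSG00000120875, chromosome 8, 29333064 to 29350684, minus strand) had 23.9, 20.5 and 24.0 CPM in the controls against 20.1, 17.0 and 17.2 CPM after knockdown. Knockdown replicate 1 came close to control replicate 2, and on the FPKM scale, which has no TMM factor, these overlapped (2.46 and 2.43 FPKM). DUSP4 changed by -0.33 ± 0.095 on the log2 scale (SE, edgeR QL test, adjusted p = 0.031). The call was lost in 7 of 14 alternatives, among them library-size scaling (edgeR, adjusted p = 0.063) and the fits without knockdown replicate 2 (0.12), without knockdown replicate 3 (0.092), without control replicate 1 (0.090) and without control replicate 3 (0.095).

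DUSP6, the cytoplasmic phosphatase most specific for ERK and a standard readout of ERK output, was barely expressed in this line. DUSP6 (ENSG00000139318, chromosome 12, 89347235 to 89352501, minus strand) had 63, 60 and 28 counts in the controls against 20, 38 and 23 after knockdown. These were 1.02, 0.944 and 0.456 CPM against 0.285, 0.567 and 0.329 CPM. The groups overlapped, because control replicate 3 lay below knockdown replicate 2. The log2 fold change of -1.03 had a standard error of 0.45 and did not pass the test (edgeR QL test, unadjusted p = 0.044, adjusted p = 0.13). It moved between -1.39 and -0.84 with each sample left out in turn. AC024909, annotated on the opposite strand across the start of DUSP6, had 3, 1 and 0 counts in the controls against 6, 21 and 1 after knockdown.

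**Figure D3:**
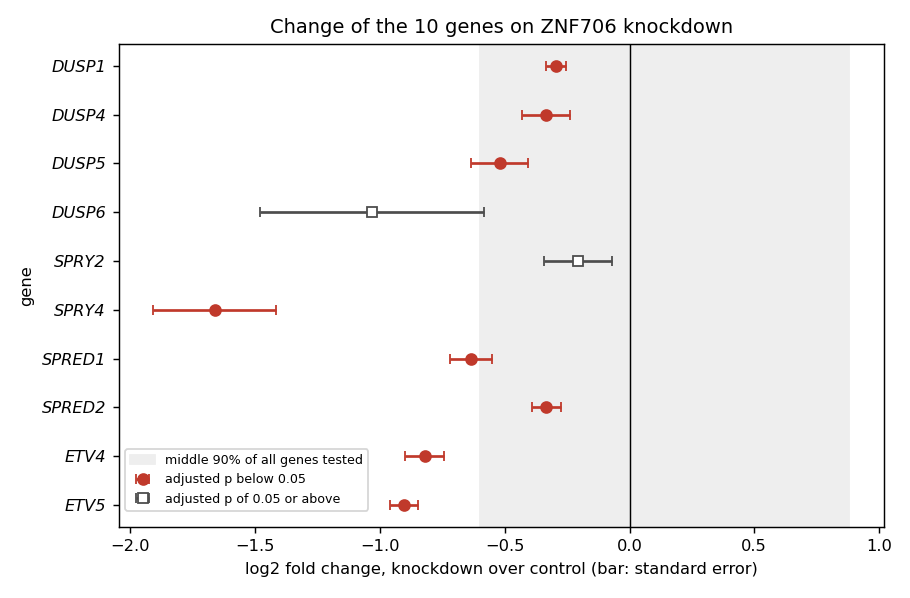
Log2 fold change (knockdown over control) of each of the 10 genes from edgeR, with its standard error as the bar; filled circles passed an adjusted p of 0.05 and open squares did not. All 10 lie below 0, and SPRY4, ETV5, ETV4, SPRED1 and DUSP6 lie beyond the grey band, the middle 90% of all genes tested (-0.60 to 0.88).

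The rest of the pathway was described by 8 lists of 77 genes, of which 73 were tested. These lists, like the 10 genes, were chosen with earlier results of these data known. Of the 73 tested genes, 22 were lower and 15 higher, with a median log2 fold change of -0.06. This was 50.7% called, against 22.8% of all genes tested and 29.1% of those whose mean count reached 50. Under library size alone 17 were lower and 18 higher, so the excess of falls was not kept. The lists differed in direction, and their medians ran from -0.26 to 0.15, all nearer to 0 than that of the 10 genes. The 4 genes not tested were EPHA4, MAPK10, PDGFRA and KIT.

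Among the 6 remaining MAP kinase phosphatases, 1 fell, 1 rose and 4 were not called (median log2 fold change 0.11), against 1 lower and 2 higher under library size alone. Thus 33.3% were called and 16.7% were lower, against 22.8% and 12.4% of all genes tested. DUSP7 had 59.3, 60.6 and 60.8 CPM in the controls against 37.6, 38.5 and 34.98 CPM after knockdown. Its fall was wide of the spread in either group (log2 fold change -0.70, SE 0.047, edgeR QL test, adjusted p = 3.4e-05). DUSP16, which acts mainly on JNK and p38, rose from 58.4 ± 1.80 to 69.3 ± 2.91 CPM (SD, n = 3 each, log2 fold change 0.25; edgeR, adjusted p = 0.0032). DUSP9 had the highest level per gene length of this list, 11.8 ± 0.98 FPKM for controls and 13.8 ± 0.72 FPKM for knockdown, and was not called (log2 fold change 0.17, edgeR, adjusted p = 0.11). Of the 4 remaining sprouty, SPRED and PEA3 genes, edgeR called 0, as did DESeq2, 0 had an unadjusted p below 0.05, and all 4 had a log2 fold change below 0 (median -0.26), with SPRY1 the most abundant.

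Of the 16 genes of the ERK cascade, 8 fell and 2 rose, by small amounts (median log2 fold change -0.14, range -0.30 to 0.22), against 6 and 3 under library size alone. The exchange factors SOS1 (-0.30) and SOS2 (-0.26), the adaptor GRB2 (-0.21) and the phosphatase PTPN11 (-0.14) were among those called lower on the log2 scale. SOS1 had 191, 192 and 188 CPM in the controls against 156, 153 and 153 CPM after knockdown, the smallest p of the list (edgeR QL test, adjusted p = 0.00022). PTPN11 was the most abundant, with 66.6 ± 0.70 FPKM for controls and 62.7 ± 1.31 FPKM for knockdown (SD, n = 3 each). The kinases that rose were MAPK3, which is ERK1 (0.22), and MAP2K2, which is MEK2 (0.17), named here after their values were seen. MAPK3 rose from 30.2 ± 0.51 to 35.3 ± 1.00 CPM (SD, n = 3 each).

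Among 10 tested JNK and p38 kinases and their activators, 5 fell and 1 rose, against 3 and 2 under library size alone. The p38 kinase MAPK14 (-0.33), the JNK kinases MAPK8 (-0.35) and MAPK9 (-0.19) and the activators MAP2K4 (-0.19) and MAP2K7 (-0.14) were lower on the log2 scale. MAP2K6, an activator of p38, rose from 8.78 ± 0.40 to 15.9 ± 0.83 CPM (SD, n = 3 each, log2 fold change 0.85; edgeR QL test, adjusted p = 0.00024).

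Other genes transcribed in response to ERK did not all follow the 10 genes. Of 9 tested, 3 fell and 1 rose (median log2 fold change -0.20). The shares called and lower were 44.4% and 33.3%, against 22.8% and 12.4% of all genes tested. FOSL1, an AP-1 subunit whose level tracks ERK activity in many tumour cells, had 50.4, 51.7 and 60.2 CPM in the controls against 28.3, 28.6 and 31.2 CPM after knockdown. Its fall was close in size to that of ETV5 (log2 fold change -0.88, SE 0.074, edgeR QL test, adjusted p = 8.1e-05). The receptor EPHA2 (-0.47) and PHLDA1 (-0.41) also fell on the log2 scale. FOS, the AP-1 subunit induced within minutes of stimulation, rose from 21.2 ± 2.16 to 29.01 ± 2.08 CPM (SD, n = 3 each, log2 fold change 0.45; edgeR, adjusted p = 0.0059). IER3, the most abundant of the list, overlapped between the groups and was not called (log2 fold change -0.19, edgeR, adjusted p = 0.053).

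**Figure D4:**
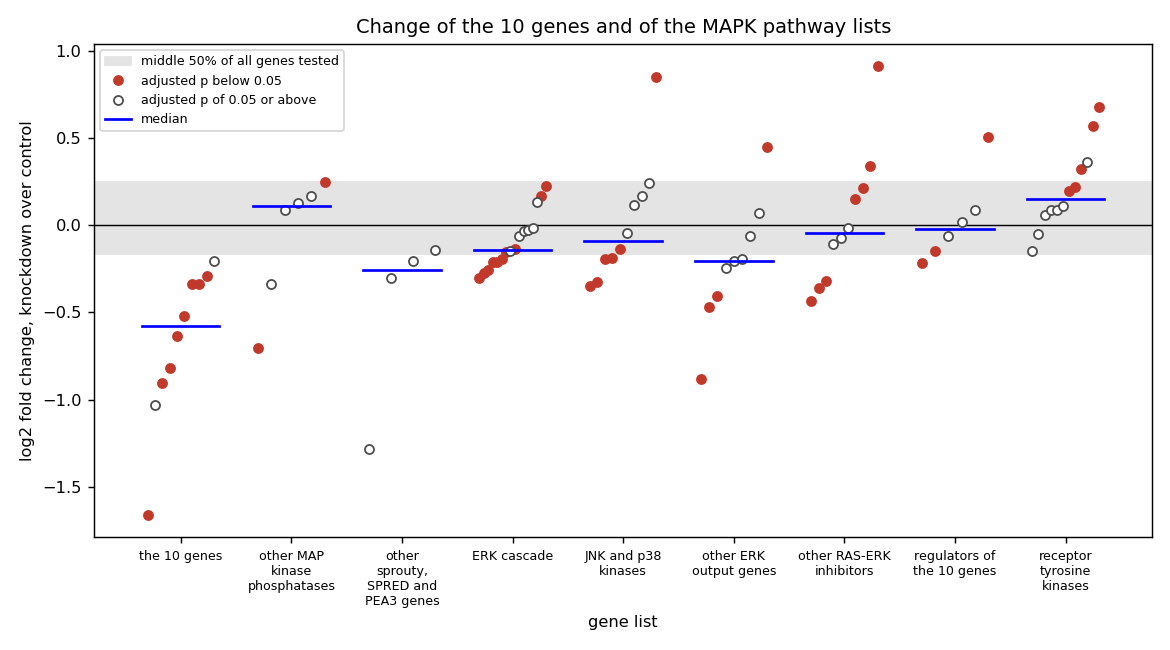
Log2 fold change (knockdown over control) of the 10 genes and of the tested genes of 8 pathway lists; each point is a gene, filled where its adjusted p was below 0.05, and blue lines are list medians. The median of the 10 genes (-0.58) lies below the medians of the 8 lists and below the grey band, the middle 50% of all genes tested (-0.16 to 0.25). The 10 genes and the lists were chosen with earlier results of these data known.

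Of 10 further inhibitors of RAS and ERK signaling, 3 fell, 4 rose and 3 were not called. This made 70.0% called and 30.0% lower, against 22.8% and 12.4% of all genes tested. ERRFI1, a feedback inhibitor of EGFR, fell from 119 ± 0.46 to 92.7 ± 7.18 CPM (SD, n = 3 each, log2 fold change -0.36; edgeR QL test, adjusted p = 0.0012). The ubiquitin ligase CBL (-0.32) and the RAS GTPase activator RASA2 (-0.44) also fell on the log2 scale. PEBP1 (0.15), an inhibitor of RAF and the most abundant of this list, RASA1 (0.22) and LZTR1 (0.34), an adaptor in RAS degradation, rose. So did IL17RD, an FGF feedback inhibitor named after its value was seen, from 0.855 ± 0.166 to 1.61 ± 0.355 CPM (SD, n = 3 each).

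Among 6 known regulators of the 10 genes or their proteins, 2 fell and 1 rose, against 1 and 1 under library size alone. ATXN1, a partner of the repressor CIC, rose from 21.9 ± 0.62 to 31.1 ± 0.26 CPM (SD, n = 3 each), a log2 fold change of 0.51 ± 0.060 (SE, edgeR QL test, adjusted p = 0.00044). Its relative ATXN1L fell by 0.15 and SIAH2, a ubiquitin ligase for sprouty proteins, fell by 0.22 on the log2 scale. CIC itself, looked up after the other values were seen, had 45.9, 47.7 and 50.6 CPM in the controls against 47.4, 52.3 and 46.5 CPM after knockdown. These overlapped (log2 fold change 0.02, SE 0.057).

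Of 12 tested receptor tyrosine kinases, 5 rose and 0 fell in edgeR (median log2 fold change 0.15), where 10.4% of all genes tested rose. With an unadjusted p below 0.05, 1 of the 12 was lower, and DESeq2 called 0 lower. EGFR had 183, 178 and 168 CPM in the controls against 233, 220 and 208 CPM after knockdown, without overlap (log2 fold change 0.32, edgeR QL test, adjusted p = 0.0014). ERBB2 had 25.5, 24.6 and 24.8 CPM against 38.3, 36.2 and 36.6 CPM (log2 fold change 0.57, edgeR, adjusted p = 0.00017). MET, IGF1R and PDGFRB rose by 0.20, 0.22 and 0.68 on the log2 scale. MET, the receptor for hepatocyte growth factor, was the most abundant of the list per gene length, whereas IGF1R was higher in CPM. The other 7 tested receptors were not called.

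The genes whose pattern was most like that of ETV5, the gene with the smallest p among the 10, were sought among 13579 tested genes with a mean of at least 1 CPM. By Pearson's r of log2 CPM over the 6 samples, DOT1L (0.999), MAPK6 (0.998), AP1G1 (0.998), HNRNPK (0.998) and PTPN12 (0.998) came first. These values share libraries and a difference between groups, and are given as a description. DOT1L, a histone methyltransferase, had 152, 152 and 158 CPM in the controls against 112, 115 and 109 CPM after knockdown, a log2 fold change of -0.46. The log2 fold changes of the others were nearer to 0, at -0.13 for MAPK6, an atypical MAP kinase, -0.17 for AP1G1, -0.06 for HNRNPK, which was not called (edgeR, adjusted p = 0.11), and -0.34 for the phosphatase PTPN12, so the likeness was in the pattern over samples and not in the size of the difference.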

How the data were processed

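Total RNA of 3 control and 3 ZNF706 knockdown samples was sequenced on an Illumina NovaSeq instrument and mapped with HISAT2; the submitters' processing notes name cutadapt 1.9, FastQC and GRCh38. The authors deposited raw read counts per gene, without normalization, beside FPKM values, in which gene length and library size are divided out. The counting program, strand setting and annotation release are not given in the sources used here.

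Low genes were removed by filterByExpr, libraries were scaled by TMM, and groups were compared by the quasi-likelihood test of edgeR 4.0.16 in R 4.3.3, with a term for the group only and Benjamini-Hochberg adjustment over 18390 genes. The SE of a log2 fold change is its size over the root of the F statistic. The steps were run on simulated data in which few genes changed, equally in both directions, so the dependence on scaling was not tested there. CPM values use TMM-scaled library sizes, and log2 CPM a prior count of 2. The chi-square value per gene between samples of a group (12.8 to 22.2) was far above sampling noise for every pair.

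The 10 genes and all lists were chosen with earlier results of these data known. Named genes were the 10 genes, ZNF706, up to 6 called genes with the smallest p and the most abundant gene per list. Also named were the 5 genes most like the gene of the 10 with the smallest p. Other pathway genes are marked, apart from ETV1, SPRY3 and SPRED3 and the genes listed as not tested. Marker genes and genes overlapping or copied from the 10 were also named outside this rule. Results for some genes that the rule names are left out here. Alternatives were DESeq2 1.42.0, its size factors, library-size scaling, all genes unfiltered, genes whose mean count reached 50, a replicate block, limma 3.58.1 on log2(FPKM + 0.1) with a mean FPKM of at least 1, the study's criteria on the edgeR and DESeq2 fits (unadjusted p below 0.05 with a log2 change of 0.3 or more either way), and each sample left out. Removing each library's trend on the GC content of the longest GENCODE release 29 transcript (98.6% of tested genes had one) was added after seeing the data. Promoters are from RefSeq; those of SPRY4, SPRED1, SPRED2 and DUSP6 overlap exons and are not printed.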

Additional observations from a re-analysis of the deposited data

How the results depend on the processing

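All 137 fold changes computed for the 10 genes under the alternatives (12 to 14 per gene) were below 0, and between 6 (limma on FPKM, in which SPRY4 and DUSP6 were too low to be tested) and 8 genes were called lower, with none called higher. ETV5, ETV4, SPRED1, SPRED2, SPRY4, DUSP1 and DUSP5 kept an adjusted p below 0.05, at most 0.046 (DUSP5), in each alternative fit that tested them, whereas DUSP4 was called in 7 of 14 and DUSP6 and SPRY2 in none. The number of called genes in the whole table was 2648 to 3424 with each sample left out, lowest without knockdown replicate 2, against 4192. By the study's limits (unadjusted p below 0.05, log2 change of 0.3) on the edgeR fit, 8 of the 10 genes were lower, with DUSP6 in and DUSP1 out. With DESeq2, the study's tool, the same limits (a check added after seeing the data) gave 7, as DUSP6 (unadjusted p = 0.063) was out too. On the edgeR fit the pathway lists had 11 genes lower and 8 higher instead of 22 and 15, since most of their changes were under 0.3. Library-size scaling gave 7 of the 10 genes lower, 17 pathway genes lower and 18 higher, and a median of 0.06 for all genes tested, and removing the GC trend gave 8. Samples with the same replicate number did not deviate together (correlations of 0.034, -0.036 and -0.016), so the numbers do not pair them; with the replicate block 8 of the 10 genes were lower and 4361 genes were called in all. DUSP6 had 20 to 63 counts per sample and spread widely among the controls; the part of depth in its missing call was not tested.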
